A study of Drosophila melanogaster with 2 samples.

Results

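Translation initiation factor (eIF) and elongation factor (eEF) genes were examined for binding of Asciz, a zinc finger transcription factor also listed as CG14962. The genes were taken by symbol: all protein-coding genes whose symbol starts with eIF or eEF and a digit. This gave 51 of the 13945 protein-coding genes on the 6 chromosomes considered, 44 with an eIF symbol and 7 with an eEF symbol. Binding had been profiled by chromatin immunoprecipitation and sequencing in whole embryos of Drosophila melanogaster, aged 0 to 24 h and of mixed sex, from a transgenic line that carries Asciz with GFP at its C terminus. The antibody was directed against GFP, so the tagged protein and not the endogenous one was precipitated. The 2 libraries, biological replicates 1 and 3, form a single group without a second condition. The files are peak lists without read counts, so the depth is unknown, and the control library was not analysed here. Whole embryos mix all tissues, so binding in few cells and weaker binding in many cells cannot be told apart.

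Initiation factors bring the initiator tRNA, the small ribosomal subunit and the capped mRNA together at the start codon. Elongation factors then deliver aminoacyl-tRNAs to the ribosome and move it along the message. In animals many of these genes belong, with those of the ribosomal proteins, to the mRNAs that growth signalling controls through their 5' ends, and in flies ribosomal protein genes typically start transcription at a pyrimidine-rich element, the TCT initiator. Asciz itself is best known for the gene of the dynein light chain LC8, ctp, whose promoter held the highest peak here (signal 26348).

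A gene was counted as bound when the summit of a peak in the authors' optimal list, the 5085 peaks kept by their reproducibility filter (IDR), lay within 500 bp of one of its transcription start sites (TSSs). By this rule 12 of the 51 factor genes were bound (23.5%), against 13.7% of all protein-coding genes. Elongation factor genes had 4 of 7 bound (57.1%) and initiation factor genes 8 of 44 (18.2%). The bound genes were eEF1alpha1, eEF1gamma, eEF2, eEF5, eIF1, eIF2beta, eIF3h, eIF4A, eIF4EHP, eIF4G2, eIF5B and eIF6. Their strongest peaks had a median signal of 310, against 239 over the 1916 bound protein-coding genes, a ratio of 1.30. That ratio was 0.867 among the 2542 stronger peaks and 1.05 in replicate 1 alone. These are shares and levels of gene lists in 1 peak list, with no test. Genes with several TSSs have more chances to be bound. More than 1 TSS was annotated for 5 of the 7 elongation factor genes (71.4%) and 15 of the 44 initiation factor genes (34.1%). All 4 bound elongation factor genes were of that kind. Among factor genes with more than 1 TSS 8 of 20 were bound (40%), against 26.8% of all protein-coding genes of that kind. Among those with 1 TSS it was 4 of 31 (12.9%), against 9.04%.

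Relaxed lists of 30000 regions, which hold background as well as peaks, had been made from each single library and from both pooled. In the pooled relaxed list 20 of the 51 factor genes (39.2%) had a region whose summit lay 500 bp or less from a TSS, compared with 35.2% of all protein-coding genes. In the replicate 1 list it was 18 (35.3%), against 32.7%, and in the replicate 3 list 26 (51.0%), against 41.4%. The gap between factor genes and all genes was larger in ratio among strong regions than in the full lists: within the 2000 strongest pooled regions 15.7% of factor genes had a summit, against 6.86% of all genes. In replicate 1 these shares were 11.8% and 6.53%, and in replicate 3 they were 17.6% and 7.29%. In the full replicate 3 list the shares were still 51.0% and 41.4%.

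**Figure D1:**
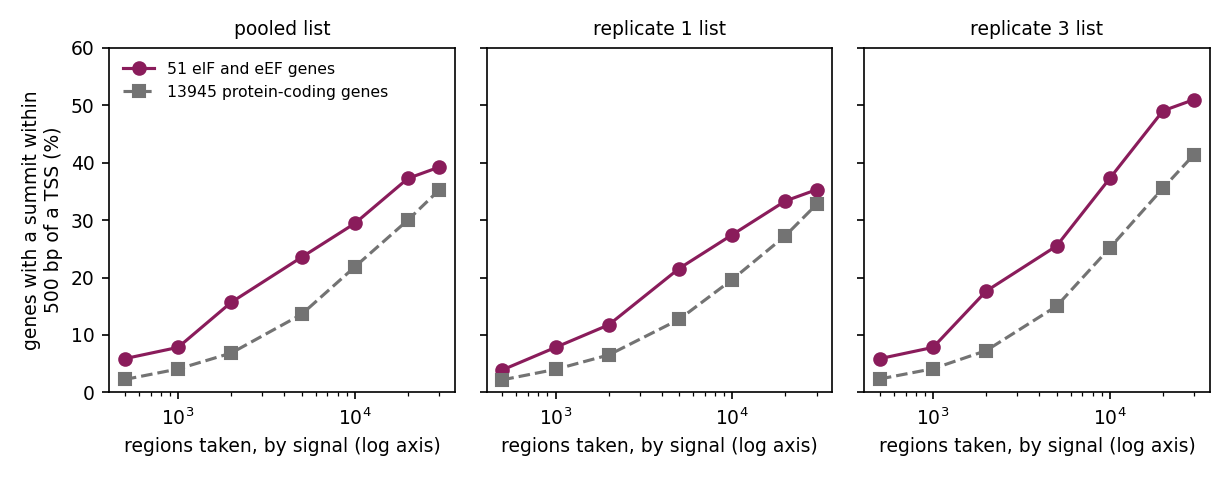
Share of genes (%) whose TSS has a region summit 500 bp or less away, plotted over the number of regions taken from the top of each relaxed list by signal (log axis), for the 51 eIF and eEF genes (circles) and for all 13945 protein-coding genes (squares). The factor genes lie above all genes at every depth shown in the 3 lists, by 15.7% against 6.86% at 2000 pooled regions and by 39.2% against 35.2% at 30000.

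The bound elongation factor genes encode proteins with different roles. The eEF1 complex loads aminoacyl-tRNA on the ribosome through eEF1alpha and recycles that protein through its beta, gamma and delta subunits, eEF2 moves the ribosome by a codon, and eEF5 is the hypusinated factor also called eIF5A. The highest peak of this group was at eEF1gamma, with a signal of 815 (rank 177 of 5085), followed by eEF2 with 315 (rank 1272), eEF1alpha1 with 257 (rank 1767) and eEF5 with 186 (rank 2972). The median over all optimal peaks was 205, so only eEF5 lay below the typical peak.

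The peak at eEF1gamma (FBgn0029176, plus strand) spans chr3R:29219982-29220279 in dm6, with its summit 38 bp upstream of the nearest TSS. That at eEF2 (FBgn0000559, minus strand) spans chr2L:21681871-21682294, with its summit in the 5' untranslated region, 33 bp downstream of a TSS. The peak at eEF5 (FBgn0285952, plus strand) spans chr2R:24057574-24057997, with its summit 12 bp upstream of a TSS. At eEF1alpha1 (FBgn0284245, plus strand), which has 4 annotated TSSs, the stronger summit (chr2R:11891884-11892307) lay in an intron of the longer transcripts and 26 bp upstream of an internal TSS. A second summit there, of signal 168 (rank 3473), lay 81 bp upstream of another TSS. All 4 bound elongation factor genes thus had their strongest summit within 50 bp of a TSS.

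The other elongation factor genes differed among themselves. The nucleotide exchange subunit genes eEF1beta and eEF1delta had weak regions in all 3 relaxed lists, at pooled ranks 7810 (signal 94.0, 238 bp upstream) and 10039 (signal 79.1, 11 bp downstream). In replicate 1 their ranks were 14658 and 8808, and in replicate 3 they were 6932 and 7282. The replicate 1 region of eEF1delta is another one, with its summit 375 bp upstream, while that of replicate 3 lay 15 bp downstream. The paralogue eEF1alpha2 had no region within 500 bp of a TSS in any list, and the nearest optimal summit lay 12342 bp upstream.

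For a common scale of both libraries, each peak was given the strongest region that overlaps it in a library, and the signal of that region was divided by the median of that value over the optimal peaks of the library. On this relative scale the typical peak stands at 1 and ctp at 112 in replicate 1 and 129 in replicate 3. At eEF2 the relative signal was 1.73 (replicate 1) and 1.25 (replicate 3) (1.49 ± 0.341, SD, n = 2). At eEF1alpha1 it was 1.06 and 1.34 (1.20 ± 0.192), and at eEF5 0.925 and 0.885 (0.905 ± 0.0285). Both libraries put eEF5 slightly below the typical peak and eEF1alpha1 and eEF2 above it, by up to 1.34 and 1.73 times. The order of eEF1alpha1 and eEF2 turned from one library to the other. At eEF1gamma replicate 3 had 3.75 (rank 194), and replicate 1 had no region among its 30000. Of the 175 optimal peaks with no region in replicate 1, the eEF1gamma peak had the third highest pooled signal. It rests on 1 library, and the cause was not tested.

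**Figure D2:**
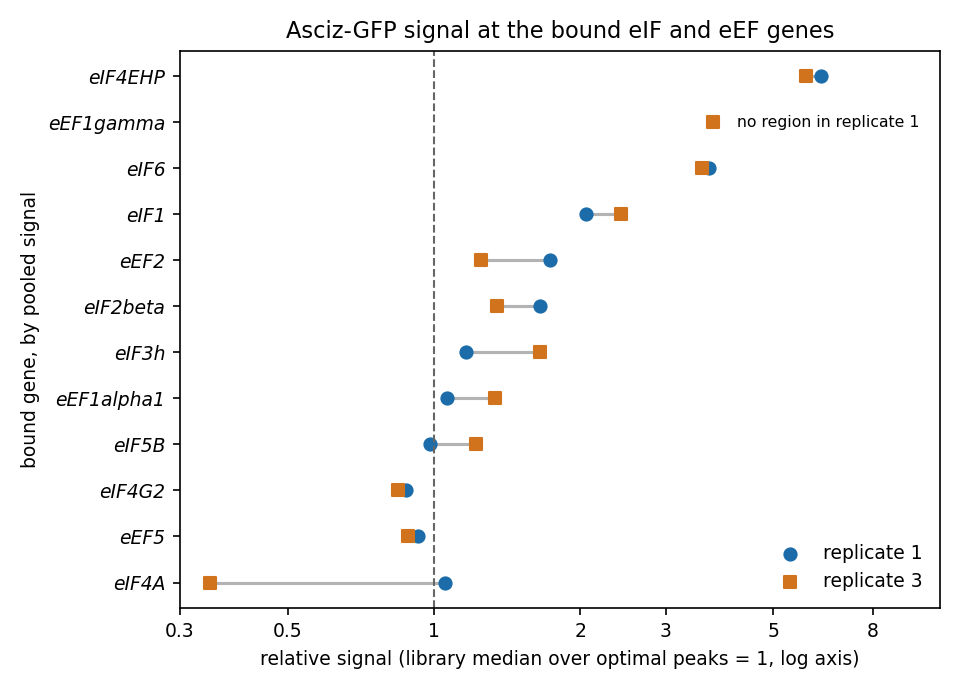
Relative signal (log axis, dashed line at 1 for the typical optimal peak) at the 12 bound genes in replicate 1 (circles) and replicate 3 (squares), ordered by pooled signal. eIF4EHP stands highest in replicate 1 (6.26) and in replicate 3 (5.83), eEF1gamma has no region in replicate 1, and eIF4A, whose library regions have different summits, differs most (1.05 and 0.345).

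Among the initiation factors the highest peak was at eIF4EHP, the gene of the cap-binding protein that represses translation of bound mRNAs, among them caudal and hunchback mRNAs in the fly embryo. Its pooled signal was 1294 (rank 43 of 5085), or 6.31 times the median optimal peak. The relative signal was 6.26 in replicate 1 and 5.83 in replicate 3 (6.05 ± 0.306, SD, n = 2), with ranks 38 and 50. The peak spans chr3R:24109010-24109380, and its summit lay between divergent genes, 195 bp upstream of the TSS of eIF4EHP (FBgn0053100, minus strand) and 181 bp upstream of that of CG18428 (plus strand). The binding can therefore not be given to either gene from position.

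The windows of 50 bp on either side of the summits of 5 bound initiation factor genes are shown. They lie in no annotated untranslated region and were read from the RefSeq release 6 assembly (dm6). They are written 5' to 3' on the strand of the named gene, with the longest unbroken run of A and T in capitals.
eIF4EHP (chr3R:24109105-24109205, minus strand): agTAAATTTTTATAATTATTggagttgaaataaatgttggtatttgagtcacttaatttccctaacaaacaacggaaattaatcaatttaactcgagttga
eIF4A (chr2L:5981523-5981623, plus strand): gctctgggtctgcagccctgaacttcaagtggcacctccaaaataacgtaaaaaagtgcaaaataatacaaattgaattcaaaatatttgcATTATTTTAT
eIF3h (chr2L:5052399-5052499, minus strand): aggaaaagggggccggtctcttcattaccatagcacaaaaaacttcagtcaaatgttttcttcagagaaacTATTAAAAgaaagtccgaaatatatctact
eIF2beta (chr3L:12526956-12527056, minus strand): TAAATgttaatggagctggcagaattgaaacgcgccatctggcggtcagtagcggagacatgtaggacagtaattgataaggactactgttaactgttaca
eIF1 (chr3L:3222964-3223064, plus strand): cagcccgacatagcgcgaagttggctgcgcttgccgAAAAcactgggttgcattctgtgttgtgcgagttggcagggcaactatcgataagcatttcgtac

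The window at eIF4EHP was 74.3% A+T with an unbroken A/T run of 18 bp, that at eIF4A 66.3% with a run of 10 bp and that at eIF3h 64.4% with a run of 8 bp. At eIF2beta the share was 56.4% and the run 5 bp, and at eIF1 they were 46.5% and 4 bp. The window at eIF6, which is not shown, was 63.4% A+T with a run of 11 bp. The median over all optimal summits was 67.3%, with a run of 10 bp, so the strongest initiation factor peak lay in A+T-rich sequence and the peak at eIF1 did not.

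The remaining cap-complex genes had weaker peaks or none. eIF4A, the RNA helicase that unwinds mRNA leaders, had a summit 191 bp upstream (chr2L:5981361-5981784, signal 153, rank 3931) and another 401 bp upstream (signal 140, rank 4438). Its relative signal was 1.05 in replicate 1 and 0.345 in replicate 3 (0.70 ± 0.502, SD, n = 2), a log2 difference of -1.61 for replicate 3 over replicate 1. These values belong to different positions, since the replicate 1 region had its summit 313 bp upstream of the TSS and the replicate 3 region 409 bp upstream, near the second pooled summit. The replicate 3 region that covers the stronger summit had 0.285. eIF4A was the only one of the 11 bound genes with a region in both libraries whose libraries were over 1 log2 unit apart. Over all optimal peaks with both values 4.32% differed by that much. eIF4G2, which encodes a scaffold protein of the eIF4G family, had its summit 15 bp downstream of a TSS that CG33111 shares (chr3R:23819010-23819433, signal 188, rank 2921), with relative signals of 0.877 and 0.842 in replicates 1 and 3 (0.859 ± 0.0246).

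eIF4E1, the main gene of the cap-binding protein eIF4E, was not bound. It had regions at rank 16167 in the pooled list (signal 57.2, 85 bp upstream), 16858 in replicate 1 and 13294 in replicate 3. The replicate 1 summit lay 284 bp downstream of a TSS and that of replicate 3 74 bp upstream, so these are not the same region. eIF4G1 on chromosome 4, the gene of the main eIF4G scaffold, had a pooled region of signal 92.4 (rank 8010, 222 bp downstream) and a region in replicate 1 (rank 8756) but none in replicate 3. eIF4H1 had a pooled region of signal 53.3 (rank 17844, 66 bp downstream) and one in replicate 3 (rank 7905). The cap-binding paralogues eIF4E3, eIF4E4, eIF4E5, eIF4E6 and eIF4E7, as well as eIF4B and eIF4H2, had no region near a TSS in any list.

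Of the genes that act at start codon selection, eIF1 was bound. Its product keeps the scanning ribosome open until the start codon is met. The signal was 485 (chr3L:3222886-3223107, rank 593), and the relative signal was 2.06 in replicate 1 and 2.43 in replicate 3 (2.24 ± 0.261, SD, n = 2). The summit was 327 bp upstream of eIF1 and 54 bp upstream of the nearest TSS of RpL28, a divergent gene of the large ribosomal subunit, to which it lies nearer. eIF1A had only weak regions, at rank 16654 in replicate 1 (281 bp upstream) and 19489 in replicate 3 (at a TSS), and eIF5 had none.

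eIF2 carries the initiator tRNA to the small subunit and eIF2B exchanges its nucleotide. Among the 3 subunit genes of eIF2, eIF2beta had a peak 275 bp upstream of its only TSS (chr3L:12526932-12527112, signal 313, rank 1286) and relative signals of 1.65 (replicate 1) and 1.35 (replicate 3), with 1.5 ± 0.213 over both (SD, n = 2). No other TSS lay within 500 bp of that summit. eIF2alpha had a pooled region of signal 62.5 (rank 14152, 266 bp upstream) and one in replicate 3 (rank 13671), and eIF2gamma had none. None of the 5 eIF2B genes had a region within 500 bp of a TSS in any list, a state shared by 51.3% of all protein-coding genes. The nearest case was eIF2Bbeta, 678 bp from a summit of signal 2396 (rank 4). It was the unbound factor gene closest to the 500 bp limit. The farthest summits of bound genes were at 331 bp downstream (eIF3h) and 327 bp upstream (eIF1).

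The single-chain proteins eIF2A and eIF2D, whose mammalian counterparts can deliver initiator tRNA without eIF2, had regions in replicate 3 only. Their ranks there were 2463 (signal 124, 57 bp upstream) and 3559 (signal 99.3, 115 bp upstream), within the range of the bound genes, and neither gene had a region in replicate 1 or in the pooled list. These are the 2 factor genes that became bound when replicate 3 was taken alone.

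eIF3 is the largest initiation factor, a scaffold on the small ribosomal subunit, and 16 of the 51 genes encode its subunits or their paralogues. Of these only eIF3h was bound (6.25%), against 13.7% of all protein-coding genes. Its stronger summit (chr2L:5052388-5052522, signal 307, rank 1320) lay in an intron 331 bp downstream of a TSS, and the other, of signal 172 (rank 3348), 21 bp downstream of the same TSS. The relative signal of the stronger one was 1.17 in replicate 1 and 1.65 in replicate 3 (1.41 ± 0.343, SD, n = 2). The TSS of senju, on the opposite strand, lies 394 bp from the stronger summit.

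The other eIF3 genes had weak regions or none. eIF3c (pooled signal 81.7, rank 9568, 2 bp downstream) and eIF3b (pooled signal 45.6, rank 22508, 43 bp upstream) had pooled regions and regions in replicate 3 alone of the libraries, at ranks 8245 and 9039. The replicate 3 summit of eIF3b lay 37 bp downstream of a TSS. eIF3d1, eIF3f1, eIF3k and eIF3m had a region in replicate 3 only, at ranks between 8450 and 29837. eIF3f2 and eIF3l had a region in replicate 1 only, at ranks 22122 and 8605. eIF3a, eIF3d2, eIF3e, eIF3g1, eIF3g2, eIF3i and eIF3j had none in any list.

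Of the factors at subunit joining, both remaining genes were bound. eIF5B promotes joining of the ribosomal subunits, and eIF6 keeps the large subunit from joining too early. eIF6 had a signal of 782 (rank 189), with relative signals of 3.68 in replicate 1 and 3.57 in replicate 3 (3.62 ± 0.0840, SD, n = 2). Its summit (chr2R:23850288-23850540) lay 120 bp upstream of eIF6 and 91 bp downstream of the TSS of asRNA:CR45928, an antisense RNA gene on the opposite strand. eIF5B had a signal of 237 (rank 2025) at chr3L:3460550-3460973, in the 5' untranslated region of its longer transcripts and 159 bp upstream of an internal TSS. Its relative signals were 0.981 in replicate 1 and 1.22 in replicate 3 (1.10 ± 0.171).

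**Figure D3:**
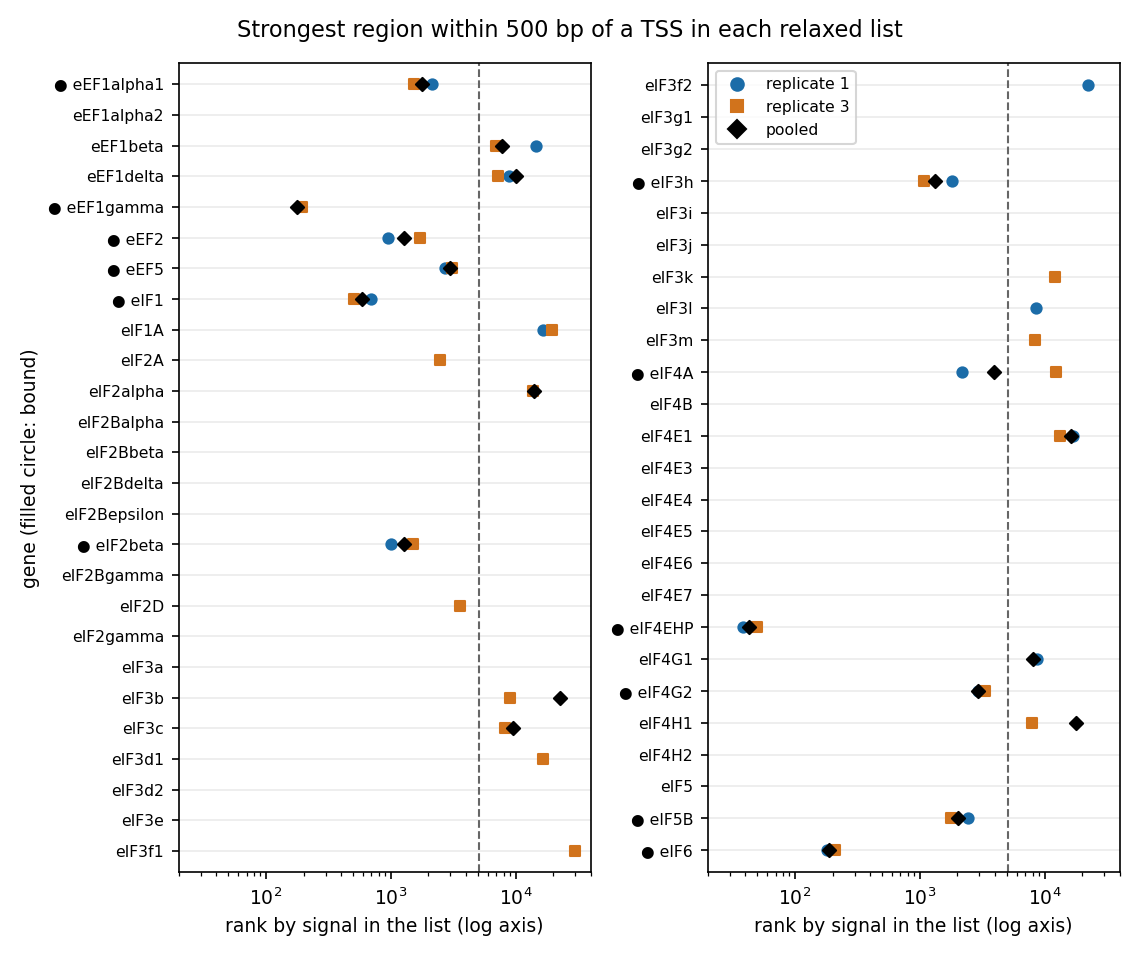
Rank by signal (log axis, 1 is the highest) of the strongest region with a summit within 500 bp of a TSS, for the 51 genes in the replicate 1, replicate 3 and pooled lists. The dashed line marks rank 5085, the size of the optimal list, filled circles by the symbols mark the 12 bound genes, and an empty row is 1 of the 22 genes with no region in any list.

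Across the 39 unbound factor genes, 8 had a pooled region (20.5%), against 24.9% of all unbound protein-coding genes. A region in replicate 3 alone of the 2 libraries was present at 10 (25.6%), against 16.2%, and in replicate 1 alone at 3 (7.69%), against 7.52%. A region in both libraries was present at 4 (10.3%), against 16.0%, where neither share requires a common summit. Of eEF1beta, eEF1delta, eIF1A and eIF4E1, only eEF1beta had summits close together, 214 and 233 bp upstream in replicates 1 and 3. No region in any of the 3 lists was present at 22 (56.4%, against 59.4%). The strongest pooled region at an unbound gene, that of eEF1beta, had a signal of 94.0. The lowest optimal peak had 127 and the weakest bound gene, eIF4A, 153, so by pooled signal no factor gene lay at the edge of the optimal list. With 1 library left out, the calls of eEF1gamma, eIF2A, eIF2D and eIF4A changed. By relaxed regions alone, the unbound factor genes stood near or below the level of other unbound genes, apart from those seen in replicate 3 alone.

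The summits of the 12 bound genes lay at a median of -79 bp from the nearest TSS of the gene (quartiles -192 and -5.25 bp), against -151 bp over the 1916 bound protein-coding genes (quartiles -257 and -52 bp). Upstream positions made up 9 of 12, or 75%, against 82.2%. The strongest summit, the one used here for each gene, lay within 50 bp of a TSS at 5 of 12 (41.7%), against 11.7%. The medians were -19 bp for the 4 eEF genes and -175 bp for the 8 eIF genes, and the positions of the groups overlap. All 4 bound eEF genes have more than 1 TSS, which gives more starts to lie near. Bound factor genes with more than 1 TSS had a median of -19 bp, and the 4 with 1 TSS, all eIF genes, -235 bp. Over all bound protein-coding genes these medians were -135.5 and -162 bp. The part of TSS number in the contrast of eEF and eIF genes was not tested. The bound cytosolic ribosomal protein genes, the nearest gene group in function, had a median of -16 bp, with 58 of 70 within 50 bp (82.9%). The strongest summit thus lay within 50 bp of a TSS at 4 of 4 eEF genes and 1 of 8 eIF genes (12.5%). The weaker second summit of eIF3h, 21 bp downstream of a TSS, is not counted.

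**Figure D4:**
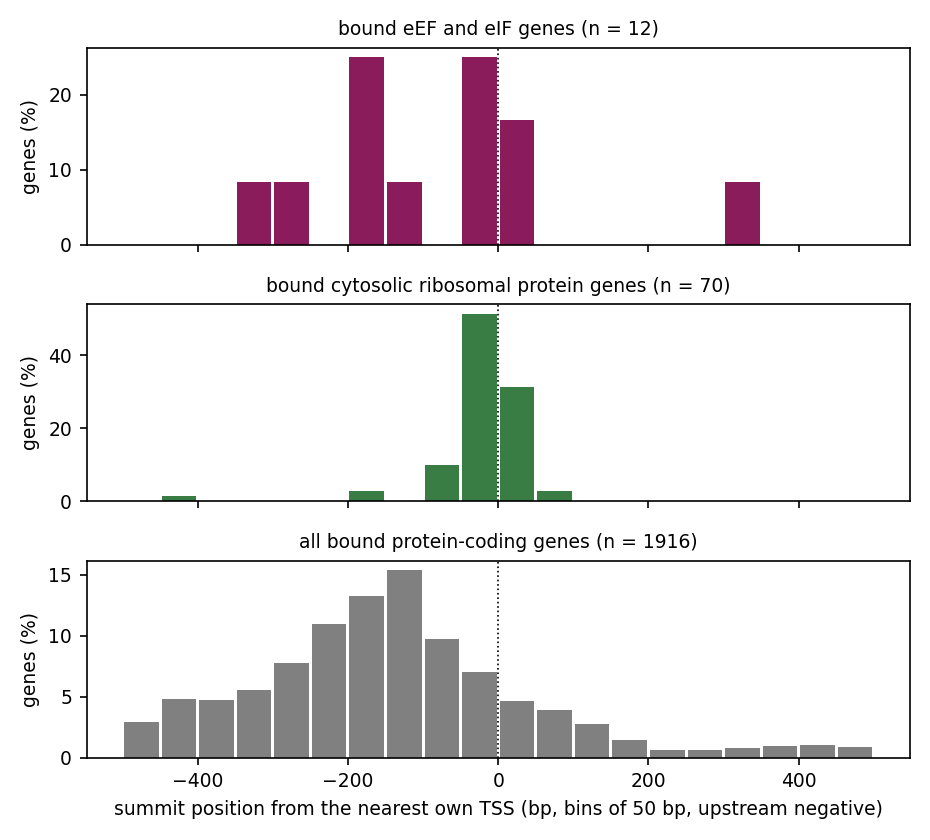
Position of the strongest summit from the nearest TSS of the gene (bp, bins of 50 bp, upstream negative, share of genes in %), for the 12 bound eEF and eIF genes, the 70 bound cytosolic ribosomal protein genes and all 1916 bound protein-coding genes. The factor genes fall into positions near the TSS, as 82.9% of the ribosomal protein genes do, and positions 120 to 327 bp upstream, with eIF3h at 331 bp downstream, while all bound genes have a median of -151 bp.

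Summits at the factor genes were less rich in A and T than most. The median A+T share within 50 bp of the summit was 55.0% (46.5 to 74.3%), against 67.3% over the 1503 distinct summits of all bound protein-coding genes, and 11 of the 12 windows lay below that value. The exception was eIF4EHP. The longest A/T run had a median of 6.5 bp, against 10 bp. The share moved with position. Over all bound protein-coding genes it was 55.4% for summits within 50 bp of a TSS and 68.3% for those farther away. For factor genes the same medians were 50.5% (5 windows) and 63.4% (7 windows). The 4 elongation factor windows had 46.5 to 53.5%, and the 70 windows of the ribosomal protein genes had a median of 55.0%. The part of position in the difference from all bound genes was not tested.

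**Figure D5:**
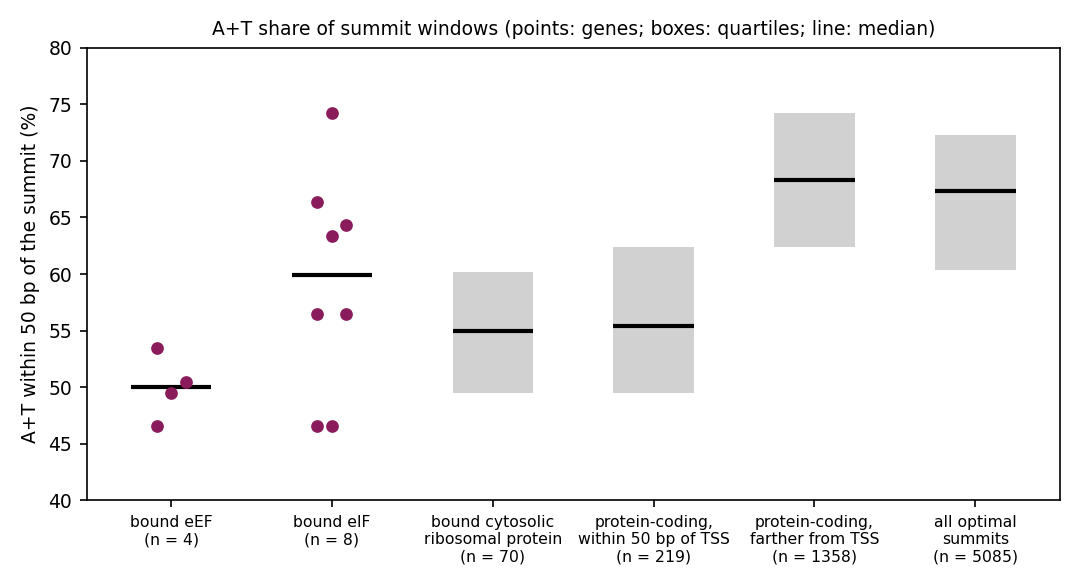
A+T share (%, axis from 40 to 80) of the windows reaching 50 bp on either side of the summit, with a point for each bound eEF and eIF gene and quartile boxes for the larger sets, and a line at each median. The 4 eEF windows lie between 46.5 and 53.5%, the 8 eIF windows between 46.5 and 74.3%, and the medians of all bound protein-coding genes are 55.4% within 50 bp of a TSS and 68.3% farther away.

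Promoter letters that the binding rule did not use were also compared. A TCT initiator was searched as TCTTTC, with T or C in first place and C or T in last place, on the gene strand and with its C within 5 bp of an annotated TSS. It was found at 6 of the 51 factor genes (11.8%), namely eEF2, eEF5, eIF4A, eIF3f1, eIF3i and eIF3m, against 2.13% of all protein-coding genes and 59.1% of the 93 cytosolic ribosomal protein genes. Of these 6 genes 3 were bound (50%), against 9 of the 45 factor genes without the match (20%). Over all protein-coding genes the same shares were 36.4% and 13.2%. Put the other way, the match was present at 25% of the bound and 7.69% of the unbound factor genes. With 6 genes this is a description, and it was not tested. With the limit at 10 bp, a choice made after seeing the data, there were 12 factor genes (23.5%), against 4.09%. Of these 12 genes 4 were bound, against 181 of the 570 protein-coding genes with that match. The count of factor genes with the match, and the part of them that is bound, thus depend on that limit.

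The 30 bases round the TSS, 20 before it and 10 from it on, are shown for 4 of the genes with the match, from the same RefSeq assembly, 5' to 3' on the gene strand and with the motif in capitals. eEF2 and eIF4A were bound, and eIF3f1 and eIF3i were not.
eEF2 (chr2L:21682107-21682136, minus strand): ctatggtcgctgcagcgcctcgcTCTTTCc
eIF4A (chr2L:5981744-5981773, plus strand): taaaacttttgcaagatggagccTCTTTTg
eIF3f1 (chr3R:4714173-4714202, minus strand): ccccacccgcactatcgataggcCCTTTTc
eIF3i (chr2L:4967766-4967795, minus strand): ttgactaggccacggtcacactgcTCTTTT

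The C of the motif lay 4 bp downstream of the annotated start at eEF2, eIF4A and eIF3f1 and 5 bp downstream at eIF3i. Over all 6 factor genes with the match the distance was 1 bp at 1 gene, 4 bp at 3 and 5 bp at 2. In the ribosomal protein genes 4 bp was the most frequent distance too, with 32.7% of 55 matches. Genes with the match were found among the bound and among the unbound factor genes.

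Other promoter letters were sought on both strands from 250 bp before to 50 bp after each TSS. Here and for the TCT initiator a match at any TSS of a gene counted. More than 1 TSS, and so more sequence searched, was annotated for 39.2% of factor genes, against 26.5% of all protein-coding genes. The part of TSS number in the motif shares was not tested. TATCGATA, the core of the DNA replication-related element, was found at 15 of the 51 factor genes (29.4%), against 10.2% of all protein-coding genes, and at 3 of 12 bound and 12 of 39 unbound ones. GGTCACAC, part of the element bound by M1BP, was found at 9 (17.6%), against 8.71%, among them the bound eEF1alpha1, eIF2beta and eIF5B. CAGCTG was found at 5 (9.80%), against 22.3%, and AATATTTA at 7 (13.7%), against 11.5%. TATAAA at 20 to 40 bp upstream on the gene strand was found at eIF4E7 only (1.96%), against 9.40%. Within the summit windows TATCGATA was present at eEF1gamma and eIF1, 2 of 12 (16.7%). The shares were 2.33% of the summits of all bound protein-coding genes and 17.1% of those of the ribosomal protein genes. The eIF1 summit lies nearer to RpL28, itself a ribosomal protein gene. For summits within 50 bp of a TSS the match was at 1 of 5, against 8.68% of such summits of all bound protein-coding genes. For those farther away it was 1 of 7, against 1.69%. Both TATCGATA and GGTCACAC occurred in bound and in unbound factor genes, GGTCACAC at 25% and 15.4% of them.

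Neighbouring genes share several of the bound promoters. A TSS on the opposite strand within 500 bp of a TSS was annotated for 6 of the 12 bound genes (50%), against 46.4% of all bound protein-coding genes. For unbound genes it was 14 of 39 (35.9%), against 28.3%. When each summit was given only to the gene of its nearest TSS, eIF1, eIF4EHP and eIF6 were lost, and 9 of 51 factor genes (17.6%) were bound, against 10.9% of all protein-coding genes. The 3 genes lost include the 2 highest initiation factor peaks.

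Other genes of translation were counted in the same way. Of 24 genes for translation regulators and termination factors, 18 had more than 1 TSS (75%), against 26.5% of all protein-coding genes. Of all protein-coding genes with more than 1 TSS 26.8% were bound. In the list of 24 genes 7 were bound (29.2%, against 13.7% of all protein-coding genes). They were larp, a La-related protein (signal 1141, rank 57), Rack1, a scaffold on the small ribosomal subunit (463), Gcn2, a kinase of eIF2alpha (410, with a summit nearer to Ugt35D1), Thor, the eIF4E-binding repressor (265), pelo, a ribosome rescue factor (201), Lk6, a kinase of eIF4E (189), and pAbp, the poly(A)-binding protein (147). The relative signal at larp was 5.24 in replicate 1 and 5.38 in replicate 3, against 6.26 and 5.83 at eIF4EHP.

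Of 20 cytosolic aminoacyl-tRNA synthetase genes 5 were bound (25%, against 13.7% of all protein-coding genes): IleRS (447), ThrRS (293), GluProRS (273), GlyRS (153) and AlaRS (143). A TSS on the opposite strand within 500 bp was annotated for 15 of the 20 (75%), against 30.8% of all protein-coding genes. The peaks of IleRS and ThrRS overlapped no region of replicate 1, like those of eEF1gamma and pAbp, and had relative signals of 2.43 and 1.42 in replicate 3. None of 9 mitochondrial translation factor genes was bound, and 10 of 73 mitochondrial ribosomal protein genes were (13.7%), the level of all protein-coding genes (13.7%). The cytosolic ribosomal protein genes had 41 of 54 bound for the large subunit (75.9%) and 29 of 39 for the small one (74.4%). The factor genes, at 23.5%, lay between the level of all protein-coding genes and that of the cytosolic ribosomal protein genes. So did the synthetase genes (25%) and the translation regulators and termination factors (29.2%).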

How the data were processed

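Chromatin from whole embryos was sonicated to fragments of 200 to 800 bp and precipitated with an anti-GFP antibody, per the labels. The authors deposited peak lists in dm6 coordinates, and per the file listings these are an optimal IDR list and relaxed lists of peaks and background. The deposited signal of each region is the authors' own value. It served to describe and rank regions within a list. Aligner and peak caller: not given in the sources used here. Both libraries entered the optimal list, so the lists are not independent, and with no read counts no interval or floor can be given.

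Genes and TSSs came from the Ensembl release 115 annotation, and sequences from the RefSeq release 6 assembly. Summits within 500 bp of any annotated TSS were assigned to the gene, and library regions were joined to peaks by an overlap of at least 1 bp, with Python 3.11.15 and numpy 2.4.6. Named are all bound factor genes, the 8 unbound ones with a pooled region, those with no region, and neighbours within 500 bp of a shared summit. The assignment was tested on simulated data. No statistical test was made. Alternatives were other promoter windows, stronger peaks, nearest TSS, overlap, the pooled relaxed list, the gene-span end and each library left out. Requiring both libraries, and the 10 bp limit for the TCT initiator, were chosen after seeing the data. The factor genes, gene lists and motifs were chosen with earlier results of these data known.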

Additional observations from a re-analysis of the deposited data

How the results depend on the processing

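The count of 12 bound factor genes stayed between 9 and 13 under the other settings, apart from the whole pooled relaxed list, which gave 20. The bound shares changed with the setting. With the stronger peaks they were 17.6% of factor genes and 8.14% of all protein-coding genes. With the 1000 bp window they were 25.5% and 17.0%, and in the pooled relaxed list 39.2% and 35.2%. Leaving out 1 library in turn gave 11 to 13 genes, a median position of -125 to -57 bp and a signal ratio of 1.05 to 1.21. For factor genes and all protein-coding genes the shares were 21.6% and 12.8% without replicate 3, and 25.5% and 15.2% without replicate 1. Without replicate 1, eIF2A and eIF2D were gained and eIF4A was lost, and without replicate 3, eEF1gamma was lost. The median position of -79 bp became -26 bp when summits went to the nearest TSS only, a setting that removes eIF1, eIF4EHP and eIF6. It was -32 bp with the 200 bp window, -40.5 bp in the pooled relaxed list, and -120 bp with the 1000 bp window, the stronger peaks, peak overlap or a region in both libraries.

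The ratio of the median signals, 1.30, was 1.13 with a window of 200 bp, 1.09 with the nearest TSS only and 1.87 in the pooled relaxed list. It turned to 0.867 among the 2542 stronger peaks, a setting that removes eEF5, eIF4A and eIF4G2, so factor genes had no stable excess of signal. When the library region had to cover the summit, eIF4A in replicate 3 changed to 0.285 from 0.345, and no other of the 23 relative signals changed. No paired analysis was possible because there is 1 group and no test. The depth of the libraries is unknown, peaks at shared promoters cannot be given to 1 gene, and 2 libraries limit every SD.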
